A study of Mus musculus with 20 samples.

Results

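The Nr4a family consists of *Nr4a1* (Nur77), *Nr4a2* (Nurr1) and *Nr4a3* (Nor1), and it was followed here through the amygdala of 20 male mice, 1 mouse per array. Each gene was represented by 1 probe set that carries its symbol alone, so the family made up 3 of the 28767 probe sets measured. The family was selected on the *WT stress* vs. *con* difference of these arrays, because *Nr4a2* and *Nr4a3* were on the study's gene list for that comparison. Group differences of the 3 genes that involve *WT* arrays are therefore given as a description, without a test, and the only group difference of the family that was tested is *KO stress* vs. *con*. Correlations within the groups were tested over all arrays, after subtraction of the group means.

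The mice were homozygous for a constitutive knockout of the serotonin transporter 5-HTT (*KO*) or wildtype (*WT*), all born to heterozygous parents on a C57BL/6 background. All of them were single-housed from 5 months of age and had been through the elevated plus-maze at 7 months. Mice had either been placed in water of 22 °C for 1 min (*stress*) or left in the home cage for 1 min (*con*), which gave *KO stress*, *KO con*, *WT stress* and *WT con* with 5 arrays each. RNA came from the left and right amygdalae of a mouse, dissected after isoflurane anaesthesia and decapitation, with the whole procedure over within 9 min of its start. Values are normalised log2 signals, so a difference of 1 stands for a doubling, and they are compared between arrays for 1 probe set only.

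Members of the Nr4a family are orphan nuclear receptors: no hormone is known to be needed for their action, and their activity follows from how much of the protein is made. They are immediate early genes whose transcripts climb within minutes to an hour of neuronal activity, cAMP or calcium signals, largely through the factor CREB bound to cAMP response elements (CREs) in their promoters. As monomers the proteins bind the NGFI-B response element (NBRE), and *Nr4a1* and *Nr4a2* can also pair with retinoid X receptors. In brain, *Nr4a1* is prominent in striatal neurons, while *Nr4a2* marks the claustrum and deep cortical layers and is required for midbrain dopamine neurons.

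*Nr4a1* (gene ID 15370) lies on chromosome 15 from 101253902 to 101274795, *Nr4a2* (gene ID 18227) on chromosome 2 from 57106830 to 57124003, and *Nr4a3* (gene ID 18124) on chromosome 4 from 48045078 to 48086447 (GRCm38.p6, RefSeq annotation). The promoters are shown because the CRE is the element through which stimuli are known to reach all 3 genes. Each window runs from 250 bases before to 50 bases after the start site that the RefSeq promoter table uses for the gene, in the direction of transcription. Capitals mark the short CRE motif CGTCA, or TGACG where it is read on the opposite strand. The *Nr4a1* window (chr15:101266596-101266895, plus strand) lies wholly inside the annotated gene span given above. The *Nr4a2* window is chr2:57123954-57124253 on the minus strand, and that of *Nr4a3* is chr4:48045055-48045354 on the plus strand, and all but its first bases lie inside the annotated gene span.
Nr4a1: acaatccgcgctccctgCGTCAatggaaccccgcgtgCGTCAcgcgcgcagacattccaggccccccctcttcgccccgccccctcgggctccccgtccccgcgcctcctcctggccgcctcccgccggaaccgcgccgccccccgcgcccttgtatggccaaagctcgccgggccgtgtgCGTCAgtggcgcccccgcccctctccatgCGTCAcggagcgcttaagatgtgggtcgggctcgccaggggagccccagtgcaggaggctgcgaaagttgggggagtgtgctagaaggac
Nr4a2: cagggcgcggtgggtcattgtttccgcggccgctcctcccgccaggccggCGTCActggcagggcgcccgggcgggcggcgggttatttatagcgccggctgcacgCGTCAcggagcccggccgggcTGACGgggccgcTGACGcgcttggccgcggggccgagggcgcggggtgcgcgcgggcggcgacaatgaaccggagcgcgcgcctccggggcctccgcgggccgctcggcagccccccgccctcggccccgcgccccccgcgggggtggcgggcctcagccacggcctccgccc
Nr4a3: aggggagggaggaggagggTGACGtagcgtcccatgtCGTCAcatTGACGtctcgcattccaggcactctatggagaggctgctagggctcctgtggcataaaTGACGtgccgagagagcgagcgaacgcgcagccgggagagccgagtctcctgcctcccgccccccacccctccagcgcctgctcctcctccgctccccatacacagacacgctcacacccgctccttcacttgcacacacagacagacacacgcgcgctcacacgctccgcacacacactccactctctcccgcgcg

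All 3 promoters held 4 short CRE motifs. In *Nr4a1* all of them read on the plus strand of the window, at -233, -213, -69 and -40 from the start site of the table. In *Nr4a2* the sites at -200 and -144 read on the same strand as the gene and those at -123 and -111 on the opposite one. In *Nr4a3* the only site on the gene's strand was at -213, beside sites on the opposite strand at -231, -205 and -147. Among all 32817 promoter windows of the table, 20.8% held at least 1 short motif on either strand and 0.232% held 4 or more. The full palindrome TGACGTCA, which contains the short motif on both strands, was in 1.79% of all windows and in none of the 3. The NBRE (AAAGGTCA, either strand, 1.51% of windows) and the CArG box of serum response factor (1.63%) were not in these windows either. Of 22 genes that are induced together with the family and have a window, 16 (72.7%) held at least 1 short motif in any of their windows, as did 6213 of all 26994 genes of the table (23.0%). A match of letters is not evidence of binding in these mice.

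**Figure D1:**
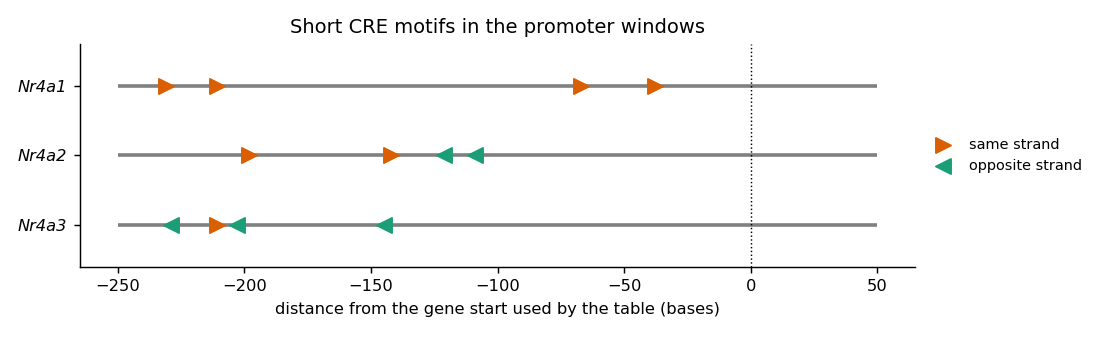
Short CRE motifs in the promoter windows of the 3 Nr4a genes. The x axis is the distance in bases from the start site that the promoter table uses, and arrowheads point in the direction in which the short motif reads. Each gene has 4 sites, all upstream of that start site, and those nearest to it are at -40 in *Nr4a1*, -111 in *Nr4a2* and -147 in *Nr4a3*.

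The arrays as a set were close to each other. Array medians lay between 6.59 and 6.82, and pairs of arrays correlated at r = 0.948 to 0.996, with 0 identical pairs. *WT stress* replicate 1 and *WT con* replicate 1 had the lowest median correlation with the others, at 0.961 and 0.978, against 0.980 to 0.990 for the other 18 arrays. The probe set of *Slc6a4*, the gene that encodes 5-HTT, measured 8.10 to 8.38 in the arrays labelled *KO* and 5.82 to 7.82 in the arrays labelled *WT*, so the knockout arrays were higher and the genotypes did not overlap. The highest *WT* value was that of *WT con* replicate 5, and the next, *WT con* replicate 1, was 6.73. None of the sources used here places the probes of *Slc6a4* relative to the deleted part, so this probe set does not check the labels, and the direction of every genotype difference rests on them. The genes listed for amygdalar glutamatergic neurons (6 of 6) and for central and medial amygdala GABAergic neurons (7 of 7) were all represented on the array. Not all of them are limited to these neurons. In homogenised tissue, fewer cells of a type and less RNA per cell cannot be told apart.

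*Nr4a1* had the smallest span of the 4 group means, although not the smallest difference between the *KO* groups. Its log2 signals were 8.75, 8.14, 8.08, 9.04 and 8.51 in *KO stress* and 8.99, 8.38, 7.90, 8.13 and 7.97 in *KO con*. They were 9.06, 9.01, 8.58, 8.53 and 7.67 in *WT stress* and 9.0, 7.91, 8.69, 7.82 and 7.81 in *WT con*. All 4 groups overlapped, and each held at least 1 array near 9. The lowest of all 20 values was that of *WT stress* replicate 5.

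*Nr4a2* varied most, and mainly through single arrays. It measured 6.97, 6.99, 7.47, 9.35 and 7.04 in *KO stress* and 7.92, 7.25, 6.91, 7.09 and 7.86 in *KO con*. In *WT stress* it measured 8.11, 7.29, 7.06, 8.19 and 8.62, against 6.58, 7.32, 7.30, 7.0 and 7.10 in *WT con*. Its highest signal of all arrays was in *KO stress* replicate 4, while the other *KO stress* arrays lay within the range of *KO con*. *WT stress* fell into 3 arrays above 8 and 2 within the *WT con* range.

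*Nr4a3* separated the *WT* groups most and the *KO* groups least. Its signals were 7.32, 7.07, 7.01, 8.10 and 7.19 in *KO stress*, against 7.39, 7.64, 7.07, 7.18 and 7.32 in *KO con*. The *WT stress* arrays measured 7.46, 7.70, 7.53, 9.01 and 8.18, and the *WT con* arrays 7.06, 7.22, 7.52, 6.43 and 6.46. Only *WT stress* replicate 1 lay inside the range of *WT con*, whereas in *KO stress* only replicate 4 lay above *KO con*.

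The order of the group means was the same for each gene, with *WT stress* highest, then *KO stress*, *KO con* and *WT con*. For *Nr4a1* the means were 8.51 ± 0.41 in *KO stress*, 8.27 ± 0.44 in *KO con*, 8.57 ± 0.56 in *WT stress* and 8.25 ± 0.56 in *WT con* (SD, n = 5 each). For *Nr4a2* they were 7.56 ± 1.02, 7.40 ± 0.46, 7.85 ± 0.65 and 7.06 ± 0.30 in the same groups, and for *Nr4a3* 7.34 ± 0.44, 7.32 ± 0.22, 7.98 ± 0.64 and 6.94 ± 0.48. Between neighbours in that order every gap was smaller than the larger SD of the pair. For *Nr4a3*, *KO stress* and *KO con* were 0.02 apart, and the gap between *WT stress* and *KO stress* was 0.64 with an SD of 0.64 in *WT stress*.

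**Figure D2:**
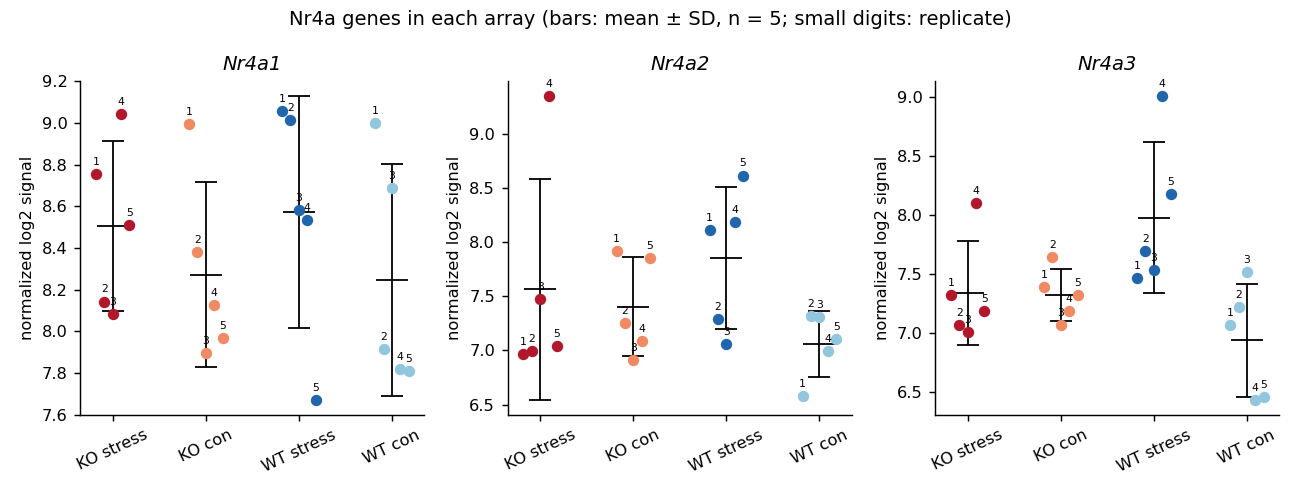
Log2 signal of *Nr4a1*, *Nr4a2* and *Nr4a3* in each array (points, with the replicate number) by group; bars are the mean ± SD of 5 arrays, and each panel has its own y axis. *KO stress* replicate 4 stands high for *Nr4a2* (9.35) and *Nr4a3* (8.10), and 4 of 5 *WT stress* arrays lie above all *WT con* arrays for *Nr4a3*.

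In *KO* mice, none of the 3 genes passed the test for *stress* vs. *con* (limma, P-values adjusted over all 28767 probe sets). Mean differences were 0.23 for *Nr4a1* (SE 0.30, 95% CI -0.39 to 0.86, adjusted P = 1), 0.16 for *Nr4a2* (SE 0.40, 95% CI -0.67 to 0.99, adjusted P = 1) and 0.02 for *Nr4a3* (SE 0.28, 95% CI -0.57 to 0.61, adjusted P = 1). Exact two-sided permutation tests of 5 arrays against 5, which can reach P = 0.00794 at best, gave P = 0.389, 0.841 and 0.944 for *Nr4a1*, *Nr4a2* and *Nr4a3*. The intervals are wide and hold differences of more than 0.5 in either direction for *Nr4a2* and *Nr4a3*. The same test called 0 of all probe sets (0%), with 326 (1.13%) at an unadjusted P under 0.05. The study listed genes that passed 1.5-fold together with an unadjusted P under 0.05. With limma's P this criterion took in 40 probe sets (0.139%), none of them an Nr4a gene.

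The sign of the *KO* differences rested on 1 array for *Nr4a2* and was not settled for *Nr4a3*. *KO stress* arrays above the *KO con* mean numbered 3 of 5 for *Nr4a1* and 2 of 5 for both *Nr4a2* and *Nr4a3*. Without *KO stress* replicate 4 the difference was -0.29 for *Nr4a2* and -0.17 for *Nr4a3*, and it was 0.10 for *Nr4a1*. That of *Nr4a3* was also negative without *KO con* replicate 3 (-0.047) and without *KO con* replicate 4 (-0.019).

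In *WT* mice, the mean differences between *stress* and *con* were 0.33 for *Nr4a1* (SE 0.30, 1.25-fold), 0.79 for *Nr4a2* (SE 0.40, 1.73-fold) and 1.04 for *Nr4a3* (SE 0.28, 2.06-fold). They belong to the comparison by which *Nr4a2* and *Nr4a3* came to notice, and are values only. *WT stress* arrays above every *WT con* array numbered 2 of 5 for *Nr4a1*, 3 of 5 for *Nr4a2* and 4 of 5 for *Nr4a3*, and 1 *WT stress* array lay below every *WT con* array for *Nr4a1*. Over all probe sets, 64 (0.222%) were higher in *WT stress* at the study's criterion and 0 (0%) passed the adjusted threshold, with 1019 (3.54%) at an unadjusted P under 0.05. Leaving out 1 array at a time gave 0.20 to 0.55 for *Nr4a1*, 0.60 to 0.99 for *Nr4a2* and 0.78 to 1.19 for *Nr4a3*, with the lowest value of *Nr4a3* without *WT stress* replicate 4 and that of *Nr4a2* without *WT stress* replicate 5.

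The genotype differences use the same *WT* arrays, and the comparisons share groups with each other. *KO con* minus *WT con* was 0.03 for *Nr4a1* (SE 0.30), 0.34 for *Nr4a2* (SE 0.40) and 0.38 for *Nr4a3* (SE 0.28). *KO stress* minus *WT stress* was -0.07 for *Nr4a1* (SE 0.30), -0.29 for *Nr4a2* (SE 0.40) and -0.64 for *Nr4a3* (SE 0.28). For *Nr4a3*, 4 of 5 *KO stress* arrays lay below every *WT stress* array and 5 of 5 *KO con* arrays lay above the mean of *WT con*. The stress difference in *KO* minus that in *WT* was -0.09 for *Nr4a1* (SE 0.42), -0.63 for *Nr4a2* (SE 0.56) and -1.02 for *Nr4a3* (SE 0.40), and was not tested for the reason given above.

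**Figure D3:**
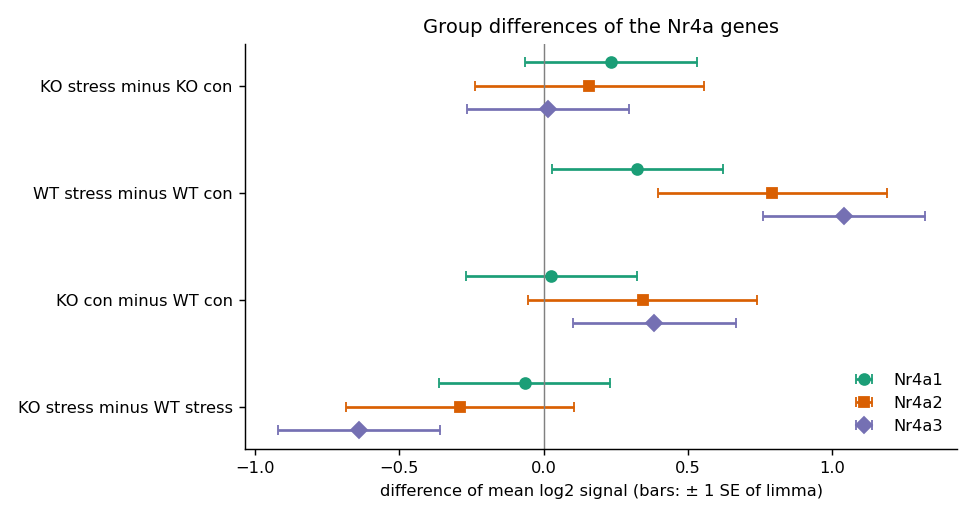
Differences between group means (x axis, log2 units) for the 3 Nr4a genes in 4 comparisons; bars are ± 1 SE from limma. The *KO stress* minus *KO con* differences lie between 0.02 and 0.23, and the *WT stress* minus *WT con* differences between 0.33 and 1.04, in the order *Nr4a1*, *Nr4a2*, *Nr4a3*.

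Within the groups, *Nr4a2* and *Nr4a3* varied together more than either did with *Nr4a1*, but no pair passed the adjusted threshold. After the group means had been subtracted, r over the 20 arrays was 0.57 for *Nr4a2* with *Nr4a3* (permutation P = 0.0247, adjusted P = 0.0740 over 15 relations, rho = 0.46 with permutation P = 0.0534 and adjusted P = 0.160). Without the 2 arrays farthest from the median of *Nr4a3* it was 0.37 (permutation P = 0.121), and without *WT stress* replicate 1 and *WT con* replicate 1 it was 0.67 (adjusted permutation P = 0.0433). For the correlations with list scores below, the 2 farthest arrays are those farthest from the median of the score. *Nr4a1* with *Nr4a2* gave r = 0.06 (adjusted permutation P = 0.852), and *Nr4a1* with *Nr4a3* r = 0.25 (adjusted permutation P = 0.543).

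*Nr4a1* followed the other immediate early genes from array to array. Its deviations correlated at r = 0.74 with the score of 29 measured genes induced along with the family, among them *Fos*, *Arc* and the *Egr* genes (permutation P = 0.000380, adjusted P = 0.00570; rho = 0.77, permutation P = 0.000500, adjusted P = 0.00750), and at 0.68 without the 2 farthest arrays (permutation P = 0.00504). With the same score r was 0.48 for *Nr4a2* (adjusted permutation P = 0.177) and 0.54 for *Nr4a3* (adjusted permutation P = 0.0667). *Nr4a1* also correlated with 6 measured markers of striatal neurons at r = 0.64 (permutation P = 0.00802, adjusted P = 0.0401; rho = 0.69, permutation P = 0.00115, adjusted P = 0.00862), a relation that no longer passed the adjusted threshold without the 2 farthest arrays (r = 0.60, adjusted permutation P = 0.157). *WT* arrays of the same replicate number were also permuted together, which keeps any pairing by number. The adjusted permutation P was then 0.0485 for the striatal genes and 0.00465 for the induced genes. Its correlation with 8 measured genes of pallial excitatory neurons was -0.04 (adjusted permutation P = 0.894).

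*Nr4a2* followed the pallial excitatory neuron genes instead, a list with the vesicular glutamate transporter *Slc17a7* and the cortical transcription factors *Neurod6*, *Neurod2* and *Tbr1*. The correlation was r = 0.70 (permutation P = 0.00207, adjusted P = 0.0155; rho = 0.74, permutation P = 0.00199, adjusted P = 0.00995) and 0.68 without the 2 farthest arrays (permutation P = 0.00634), and with the *WT* arrays permuted in pairs the adjusted permutation P was 0.0226. The 2 arrays were picked by the pallial score, so *KO stress* replicate 4, whose *Nr4a2* deviation of 1.78 was the largest, stayed in. For *Nr4a3* the correlation with the pallial genes was 0.51 (adjusted permutation P = 0.134). Markers of the claustrum, endopiriform nucleus and layer 6b, where *Nr4a2* is known to be strong, correlated with *Nr4a2* at r = -0.44 (adjusted permutation P = 0.177) in these dissections. The score of these markers lacks the listed gene *Ntng2*, which had no probe set of its symbol alone. Whether the coefficients of the 3 genes differ from each other was not tested.

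**Figure D4:**
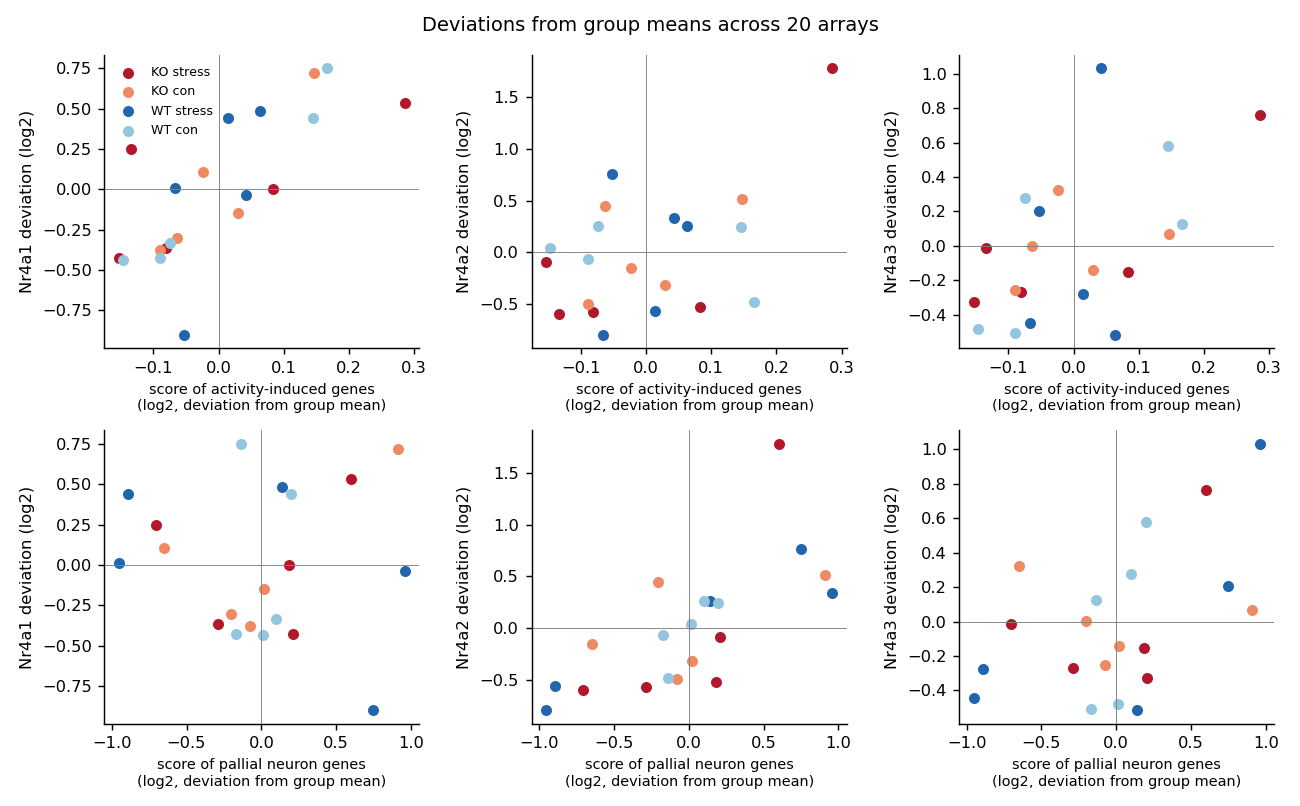
Deviation of each Nr4a gene from its group mean (y axis, log2) against the deviation of the score of activity-induced genes (upper row) and of pallial neuron genes (lower row), 20 arrays coloured by group. *Nr4a1* follows the activity-induced genes (r = 0.74) and *Nr4a2* the pallial neuron genes (r = 0.70).

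The pallial neuron genes stood high in the same *WT stress* arrays as *Nr4a2*. Their score, in log2 units relative to the mean of all arrays, ran over -0.79 to 0.52 in *KO stress*, -0.76 to 0.80 in *KO con*, -0.54 to 1.38 in *WT stress* and -0.40 to -0.03 in *WT con*. In *WT stress* it was 0.56, -0.48, -0.54, 1.38 and 1.17 in replicates 1 to 5, high in the same 3 arrays in which *Nr4a2* was above 8. All 8 measured genes of the list had a positive *WT stress* minus *WT con* difference, with a median of 0.52, against 62.8% positive and a median of 0.03 over all probe sets. The largest was that of *Neurod6*, at 1.79 (SE 0.62, unadjusted P = 0.00976, adjusted P = 1 in limma), and 2 of 8 passed the study's criterion, against 0.222% of all probe sets. This count was 1 after quantile normalisation or median centring and 0 by the methods' t-test. With this score as a covariate the *WT stress* minus *WT con* difference was 0.29 for *Nr4a2* (SE 0.32), 0.78 for *Nr4a3* (SE 0.27) and 0.35 for *Nr4a1* (SE 0.33). The mean score itself was 0.42 in *WT stress* and -0.23 in *WT con*, so score and group cannot be told apart here. The part of pallial tissue in the Nr4a values was not tested. In *KO* mice 5 of 8 genes of the list were positive, with a median of 0.07 and 0 at the criterion.

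The genes whose pattern over the 20 arrays was most like that of each member were different for the 3 genes. They are given by Pearson's r, as a description, since they lead 21770 ranked probe sets by choice. For *Nr4a1* they were the kinase *Hipk4* (0.82), the retinol carrier *Rbp4* (0.81), *Arhgap10* (0.81), the immediate early gene *Egr2* (0.79) and the Rap guanine nucleotide exchange factor *Rapgef1* (0.78). For *Nr4a3* they were the junctophilin *Jph1* (0.85), *Prdm8* (0.83), *Ccbe1* (0.83), the serum response factor partner *Elk1* (0.83) and *Paqr9* (0.82). The *WT stress* minus *WT con* differences of these *Nr4a3*-like genes ran from 0.24 for *Paqr9* (SE 0.11) to 1.17 for *Prdm8* (SE 0.36). In *KO* mice they ran from 0.02 for *Paqr9* (SE 0.11) to 0.16 for *Prdm8* (SE 0.36). The genes were chosen with the group means left in, and *Nr4a3* itself differed by 1.04 in *WT* and 0.02 in *KO*. Group differences like those of *Nr4a3* are therefore part of the choice. *Prdm8* and, through another probe set, *Jph1* are also on the study's list for *WT stress* vs. *con*. *Nr4a3* ranked 93 among the genes most like *Nr4a2* (r = 0.66), and *Nr4a2* ranked 156 for *Nr4a3*. *Nr4a1* and *Nr4a2* correlated at 0.17 and *Nr4a1* and *Nr4a3* at 0.34.

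For *Nr4a2* the leading genes were *Nwd2* (0.87), the transcription factor *Neurod1* (0.86), the secreted protein *Scube1* (0.84), the axon guidance receptor *Robo3* (0.83) and the nicotinic receptor subunit *Chrnb4* (0.82). *Chrnb4* is a defining gene of the medial habenula, a nucleus of the epithalamus outside the amygdala. Its signal was 8.49 in *KO stress* replicate 4, 7.38 in *KO con* replicate 5 and 7.83 in *WT stress* replicate 5, against 5.97 to 6.68 in the other 17 arrays. Because of this, 9 genes of the medial habenula were looked up after the values had been seen, and they are given without a test. *Chrnb4*, *Pou4f1* and *Irx2* were taken from the genes most like *Nr4a2*, and the others are textbook genes of the nucleus.

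For 6 of the 9 genes, the same 3 arrays lay above all of the other 17. They were the transcription factors *Pou4f1* (6.02 to 7.77 in the 3 arrays, against 4.90 to 5.37 in the other 17) and *Irx2* (6.68 to 7.54, against 6.29 to 6.53), the nicotinic receptor subunits *Chrnb4*, *Chrna3* (7.95 to 8.89, against 5.44 to 6.91) and *Chrnb3* (7.16 to 7.57, against 5.57 to 6.27), and the receptor *Gpr151* (7.51 to 9.20, against 5.42 to 7.02). *Tac2*, *Nhlh2* and *Gng8* each had 2 of these arrays among their top 3. The score of the 9 genes reached 1.68 in *KO stress*, 0.77 in *KO con*, 1.59 in *WT stress* and 0.21 in *WT con*, from lowest values of -0.39, -0.41, -0.55 and -0.49 in the same groups. *Nr4a2* was 9.35, 7.86 and 8.62 in the 3 arrays, but it was also above 7.9 in *KO con* replicate 1 and in *WT stress* replicates 1 and 4, whose habenula genes were not raised.

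Without these 3 arrays, the *KO stress* minus *KO con* differences were 0.02 for *Nr4a1* (SE 0.29), -0.17 for *Nr4a2* (SE 0.27) and -0.17 for *Nr4a3* (SE 0.31). The *WT stress* minus *WT con* differences were then 0.55 for *Nr4a1* (SE 0.27), 0.60 for *Nr4a2* (SE 0.25) and 0.99 for *Nr4a3* (SE 0.29). None of the 5 genes most like *Nr4a2* over 20 arrays was among its 5 most alike over the remaining 17. The part of habenular tissue in the *Nr4a2* values was not tested.

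**Figure D5:**
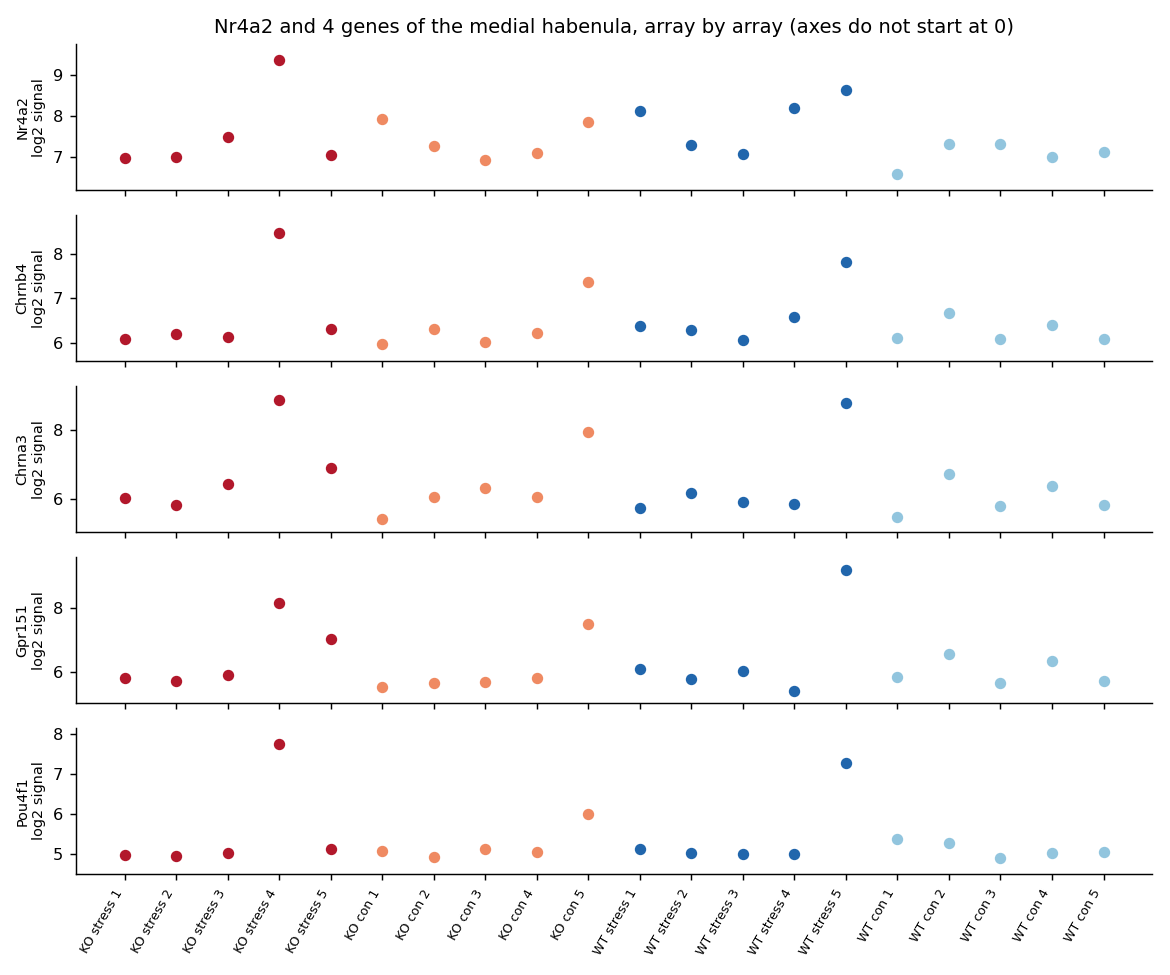
Log2 signal of *Nr4a2* and of the medial habenula genes *Chrnb4*, *Chrna3*, *Gpr151* and *Pou4f1* in each of the 20 arrays, in the order *KO stress*, *KO con*, *WT stress*, *WT con*; each panel has its own y axis. *KO stress* replicate 4, *KO con* replicate 5 and *WT stress* replicate 5 are the highest arrays of all 4 habenula genes.

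Upstream of the family, genes of the CREB, MEF2 and serum response factor routes differed little. Of 17 measured regulators, 9 had a positive *KO stress* minus *KO con* difference (median 0.02) and 16 a positive *WT stress* minus *WT con* difference (median 0.10), where 48.5% and 62.8% of all probe sets were positive with medians of -0.0016 and 0.03. None passed the study's criterion in either genotype. *Elk1* differed by 0.05 in *KO* (SE 0.10) and by 0.28 in *WT* (SE 0.10, unadjusted P = 0.00825, adjusted P = 1 in limma). The calcium-activated kinase *Camk4*, which phosphorylates CREB, differed by -0.23 in *KO* and 0.48 in *WT* (SE 0.37 each), and *Mef2c* by -0.25 and 0.26 (SE 0.20 each).

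The genes that are induced along with the family are given next to all probe sets. In *KO* mice 21 of 29 measured genes were positive (median 0.05), against 48.5% of all probe sets (median -0.0016), and 0 passed the study's criterion. The largest differences there were those of the salt-inducible kinase *Sik1* (0.40, SE 0.23), *Egr4* (0.33, SE 0.19), the synaptic gene *Arc* (0.29, SE 0.24) and *Fos* (0.27, SE 0.19). In *WT* mice 20 of 29 were positive (median 0.04), against 62.8% of all probe sets (median 0.03), and the only gene at the criterion was the polo-like kinase *Plk2* (0.81, SE 0.25, unadjusted P = 0.00409, adjusted P = 1 in limma). *Plk2* is also on the study's list for this comparison of the same arrays, which was known when the genes were chosen. Its value is therefore not independent of that result. *Nptx2* differed by 0.43 (SE 0.31), *Sik1* by -0.42 (SE 0.23) and the scaffold *Homer1* by 0.36 (SE 0.22). *Fos*, *Arc* and *Npas4* were at -0.06, -0.03 and -0.03 in *WT* mice, each with an SE of 0.19 to 0.24.

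For *stress* vs. *con* in either genotype, no retinoid X receptor and no gene of the dopaminergic list passed the study's criterion as the values were deposited. After quantile normalisation or median centring, 2 dopaminergic genes did so in *WT*. Genotype comparisons were not counted for these genes, and the study lists *Ret* and *Slc18a2* as higher in *KO* for *stress KO* vs. *WT*. The retinoid X receptors *Rxra*, *Rxrb* and *Rxrg* differed by 0.07 (SE 0.08), 0.06 (SE 0.07) and -0.15 (SE 0.57) between *KO stress* and *KO con*, and by 0.01 (SE 0.08), 0.00 (SE 0.07) and 0.13 (SE 0.57) between *WT stress* and *WT con*. Of 15 measured genes of the dopaminergic list, 11 were positive in *KO* (median 0.06) and 8 in *WT* (median 0.00). That list covers the programme of dopamine neurons, with transcription factors such as *Foxa2*, *Lmx1b* and *Pitx3*, and is not limited to targets of *Nr4a2*. The largest differences were those of *Dlk1* (-0.63 in *WT*, SE 0.31), the receptor tyrosine kinase *Ret* (-0.55 in *WT*, SE 0.28), the vesicular monoamine transporter *Slc18a2* (0.46 in *KO* and -0.40 in *WT*, SE 0.31 each) and *Aldh1a1* (0.42 in *WT*, SE 0.38). Tyrosine hydroxylase, *Th*, differed by 0.00 in *KO* and 0.09 in *WT* (SE 0.30 each). Of 7 measured markers of the claustrum and layer 6b, 5 were positive in *KO* (median 0.01) and 4 in *WT* (median 0.06), and 0 passed the criterion in either. The list has 9 genes, and *Ntng2* was not counted because no probe set carried its symbol alone. The study lists *Ntng2*, through a probe set shared with another transcript, as higher in *WT stress* vs. *con*.

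Markers of other cell types and tissues are given beside these values, none of which passed the adjusted threshold. In *KO* mice all 7 measured choroid plexus genes (median 1.03, 5 at the criterion) and all 8 meningeal genes (median 0.88, 3 at the criterion) were positive, where 48.5% of all probe sets were positive and 0.139% at the criterion. Those 5 choroid plexus genes, and *Col1a2* and *Igf2* of the meningeal ones, are also on the study's list for *KO stress* vs. *con*. The lists were chosen with earlier results known, so these counts are not independent of the study's result. The choroid plexus genes at the criterion were 3 after quantile normalisation and 1 without the 3 arrays with high habenula genes, and the meningeal genes were 0 without these arrays. The choroid plexus score ran over -0.53 to 1.95 in *KO stress*, -1.04 to -0.23 in *KO con*, -1.10 to 2.56 in *WT stress* and -0.999 to 0.157 in *WT con*, and it was highest in replicate 2 of *KO stress* and replicate 4 of *WT stress*. In *WT* mice 6 of 7 genes listed for central and medial amygdala GABAergic neurons were negative (median -0.43, 0 at the criterion). At an unadjusted limma P under 0.05 there were 3 of these 7, against 3.54% of all probe sets. They were *Gad1*, *Gad2* and *Slc32a1*, which are GABAergic genes not limited to these nuclei. The others were *Prkcd* (-1.10, SE 0.69), *Dlx5* (-0.60, SE 0.30), *Sst* (-0.13, SE 0.27) and *Crh* (0.03, SE 0.39). Striatal genes were positive in 6 of 6 cases (median 0.45, 0 at the criterion). Of 6 genes listed for amygdalar glutamatergic neurons 5 were positive (median 0.29), with the LIM-only cofactor *Lmo3* (0.76, SE 0.24) at the criterion. The negative one was *Meis2* (-0.20, SE 0.31), and *Bdnf* is counted among the genes induced with the family as well. *Lmo3* is also on the study's list for this comparison of the same arrays. In *KO* mice the medians were -0.03, -0.13 and -0.07 for the GABAergic, striatal and amygdalar glutamatergic genes, with 0 at the criterion. The part of these tissues in the Nr4a values was not tested. With the claustral score as a covariate, the *WT stress* minus *WT con* difference was 0.30 for *Nr4a1* (SE 0.30), 0.90 for *Nr4a2* (SE 0.37) and 1.10 for *Nr4a3* (SE 0.27). That score lacks *Ntng2*.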

How the data were processed

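Total RNA from the amygdalae of 20 mice was hybridised to whole-transcript gene arrays of the mouse (Affymetrix). The authors summarised probe intensities with ExonRMA in ArrayAssist, stabilised the variance and deposited normalised log2 signals for 28767 probe sets, which were used without further scaling. Base 2 is inferred from the range of values, 4.09 to 14.24. The number of arrays, not a read depth, limits the precision. Of the probe sets, 21776 have 1 gene symbol, 1618 several and 5373 none, and only the first were named. Lists used the probe set with the highest mean per gene, and listed genes without a probe set of their symbol alone were left out. Neither batches nor scan dates are given in the sources used here.

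Groups came from the sample labels. Members and lists were chosen with earlier results of these data known. limma 3.58.1 (R 4.3.3) was fitted to 4 group means with eBayes (16 residual and 2.1 prior degrees of freedom), and P-values were adjusted by Benjamini-Hochberg. The script was tested on simulated data. The study's methods used t-tests with a fold over 1.5 and an unadjusted P under 0.05, and that criterion was counted here with the P of limma. Correlations subtracted group means and used 100000 two-sided permutations within groups. A list score is the mean of its genes after centring each over the arrays. Genes named were the 3 members, *Slc6a4*, the 5 genes most like each member, and up to 4 members of a list with the largest differences; others named are list examples chosen after their values were seen.

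After subtraction of group means, all 5 same-numbered pairs of *WT stress* and *WT con* correlated above 0.1 (r = 0.162 to 0.420). In other pairs of groups at most 3 of 5 did, although single pairs reached 0.512. Arrays most like the one of their own number were 3 of 5 in the *WT* groups. They were also 3 of 5 between *KO con* and *WT con* (r = 0.0603 to 0.331). A pairing by number is therefore not settled, and it is not given by the labels. The labels call the arrays biological replicates. Alternatives were other normalisation, array weights, linear means, covariates, a replicate block and left-out arrays. Promoters came from RefSeq (GRCm38.p6), where all 3 genes matched by gene ID. Figures used matplotlib 3.10.9 in Python 3.11.15.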

Additional observations from a re-analysis of the deposited data

Results flagged for a closer look

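Each value named here stood far from the other 4 arrays of its group, with a gap to the nearest of more than 0.71 of the group's range. Among 32 groups of 5 arrays checked for 8 genes, 10 met this, where chance gives about 1 in 20. *Nr4a2* in *KO stress* replicate 4 was 9.35 and *Nr4a3* in the same array 8.10. *Chrnb4* was 8.49 in *KO stress* replicate 4 and 7.38 in *KO con* replicate 5. *Pou4f1* was 7.77 in *KO stress* replicate 4, 6.02 in *KO con* replicate 5 and 7.29 in *WT stress* replicate 5. *Chrna3* was 8.79 in *WT stress* replicate 5. *Gpr151* was 7.51 in *KO con* replicate 5 and 9.20 in *WT stress* replicate 5. The habenula genes were chosen after the values had been seen, so their flags are not independent of that choice.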

How the results depend on the processing

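No *KO stress* minus *KO con* difference of an Nr4a gene passed the adjusted threshold under any alternative run, but signs changed. That of *Nr4a2* became -0.17 without the 3 arrays with high medial habenula genes, a setting chosen after seeing the data, and ran from -0.29 to 0.31 with 1 array left out. That of *Nr4a3* became -0.023 with arrays centred on their medians, -0.14 with array weights and -0.17 without the 3 arrays, and ran from -0.17 to 0.10 with 1 array left out. For *Nr4a1* the range was 0.10 to 0.41. The *WT stress* minus *WT con* differences stayed positive under all alternatives for the 3 genes. The stress difference in *KO* minus that in *WT* ran from -0.32 to 0.09 for *Nr4a1*, from -1.08 to -0.44 for *Nr4a2* and from -1.21 to -0.77 for *Nr4a3* with 1 array left out. A replicate block left the differences as they were and changed no call (*KO stress* minus *KO con* 0.23 with SE 0.19 for *Nr4a1*, 0.16 with SE 0.50 for *Nr4a2*, 0.02 with SE 0.21 for *Nr4a3*; SE of the *WT* differences 0.21, 0.32 and 0.39).

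Of the correlations, that of *Nr4a2* with *Nr4a3* was 0.67 (adjusted permutation P = 0.0433) without *WT stress* replicate 1 and *WT con* replicate 1. That of *Nr4a3* with the activity-induced genes passed the threshold without those 2 arrays (0.63), with median centring (0.57) and after quantile normalisation (0.58). That of *Nr4a1* with striatal genes no longer passed it without the 2 farthest arrays (0.60), without the 2 *WT* arrays (0.50) and without the 3 arrays (0.60). Signs of coefficients near 0 turned for *Nr4a1* with *Nr4a2* (rho -0.012), for *Nr4a1* with pallial genes (rho 0.0030, 0.034 after quantile normalisation, 0.053 without the 3 arrays), and without the 2 farthest arrays for striatal genes with *Nr4a2* (0.10) and *Nr4a3* (0.16). The cause was not tested. Permuting the *WT* arrays in pairs (a replicate block added after seeing the data) took the *Nr4a3* correlation with the activity-induced genes (0.54) past the threshold, at an adjusted permutation P of 0.0485, and changed no other call. The choroid plexus genes at the criterion in *KO* were 3 after quantile normalisation and 1 without the 3 arrays, and the meningeal genes 0 without them. In *WT*, the dopaminergic genes at the criterion were 2 after quantile normalisation or median centring, and the pallial genes 1 under either and 0 by the methods' t-test. Dim signals compress differences, and 5 arrays a group leave intervals of about 1 log2 unit or more.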
